A study of Mus musculus with 6 samples.

Results

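Semaphorins, plexins, ephrins, Eph receptors, Slits, Robos and Unc5 receptors are cell-surface and secreted proteins first described as cues that attract or repel growing axons. Semaphorins signal through plexins, often with neuropilins as co-receptors, ephrins signal to Eph receptors on a touching cell and can signal back into their own cell, Slits act through Robo receptors, and netrins act through Unc5 receptors, DCC and neogenin. Outside the nervous system the same proteins steer the growth and permeability of blood vessels and the movement and activation of white blood cells.

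The guidance genes were taken by symbol from a table of raw counts of 14943 genes: names that begin with Sema and a digit, plexins A to D, EphA and EphB receptors, ephrins A and B, Slit1 to Slit3, Robo1 to Robo4 and every name that begins with Unc5. This gave 59 genes, namely 20 semaphorins, 9 plexins, 12 Eph receptors, 7 ephrins, 3 Slits, 3 Robos and 5 genes with names in Unc5. Of the latter, 2 are guidance genes in spelling only: Unc50 encodes a membrane protein of the secretory pathway with no relation to netrin receptors, and Unc5cl encodes an Unc5C-like protein with a death domain that does not bind netrin and has been tied to NF-kappaB signalling.

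RNA was sequenced from the lining of the abdomen (peritoneum) of wild-type male C57BL/6J mice aged 8 weeks. In the model of encapsulating peritoneal sclerosis (EPS), in which fibrous tissue wraps the bowel, 3 libraries came from mice that received daily abdominal injections of 4.25% peritoneal dialysis solution (100 mL/kg) together with SHS, which the labels do not spell out (0.3 mL), and weekly ones of lipopolysaccharide (4 mg/kg). The 3 control libraries came from mice injected with an equal volume of saline, and tissue was collected in week 3. The EPS mice received all the agents together, so the effect of any 1 of them cannot be told apart, and whole tissue was sequenced, so fewer cells of a type and less RNA per cell cannot be told apart either. The labels number the libraries without saying that each is 1 mouse, so p-values measure the spread between these samples.

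Each library held between 15419232 and 17684229 counts, of which the guidance genes took 0.196% to 0.198% in controls and 0.220% to 0.317% in EPS. These are shares of raw totals and do not measure a rise under the scaling used below. That scaling (TMM) had factors of 0.86 to 0.88 in controls and 0.94 to 1.28 in EPS. Each of 7 markers of mesothelium, the surface layer of this tissue, had counts in every library, none was called, and their summed level was lowest in EPS 3 (40.1 CPM, against 122 to 192 in controls and up to 352 in EPS 1). Of the EPS 1 sum, the keratin genes Krt18 and Krt8 made up 106 and 86.3 CPM. Only Upk3b had groups without overlap, at 95.5, 94.4 and 65.8 CPM in controls 1 to 3 and 51.6, 42.7 and 11.3 CPM in EPS 1 to 3. Markers of other cell types differed between the groups. The summed level of 10 blood endothelial markers was 2605 to 2675 CPM in controls and 1086 to 1417 CPM in EPS, all called lower. That of 8 adipocyte markers was 18298 to 19366 CPM in controls and 1311 to 1952 CPM in EPS, with all 8 lower. White blood cell markers went the other way. The sum of 8 macrophage markers was 658 to 736 CPM in controls and 3439.8 to 4223 CPM in EPS, that of 8 T cell markers 8.33 to 11.6 and 360.2 to 731 CPM, and that of 6 B cell markers 6.87 to 11.7 and 536 to 891 CPM, with every marker of the 3 lists called higher. No marker of these 5 lists was at 0 in all libraries. Of the other lists, 7 of 7 neutrophil and 4 of 7 fibroblast markers were higher, 3 of 5 pericyte, 4 of 6 smooth muscle and 4 of 8 Schwann cell and neuron markers were lower, and of 6 lymphatic endothelial markers 3 were higher and 2 lower. EPS 1 stood apart, with 12.005% of its counts on 8 digestive enzyme genes of the exocrine pancreas against 0.0184% in EPS 2 and 0.0551% in EPS 3. In controls 1 to 3 the share was 0.2705%, 0.252% and 0.0254%, so that controls 1 and 2 lie above EPS 2 and EPS 3. Without EPS 1, 14 guidance genes were higher and 19 lower, beside 4393 higher and 4082 lower of all 14152 genes then tested. How far cell makeup contributes to any guidance gene's change was not tested.

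Of the 57 guidance genes with enough counts to test, 14 were higher in EPS, 22 were lower and 21 did not pass an adjusted p of 0.05 in edgeR's quasi-likelihood test. Over all 13980 tested genes, 29.2% were called higher and 30.4% lower, 59.6% in all, against 24.6%, 38.6% and 63.2% of the guidance genes, so the share called was near the background. The median log2 fold change of the guidance genes was -0.34, beside -0.02 for all tested genes. A change over 2-fold was called upward for 11 and downward for 9 guidance genes (17.3% and 16.8% of all tested genes). Every EPS library lay above every control for 13 of the 57, and below for 26 (33.1% and 35.4% of all tested genes). The division depended on scaling. With library totals in place of TMM factors, the median gene's log2 fold change was 0.42 higher. Then 17 guidance genes were higher and 7 lower, or 70.8% of the calls upward in place of 38.9%. Over all tested genes, 72.2% of the calls were upward with library totals, in place of 49.1%. Changes below are relative to TMM scaling.

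**Figure D1:**
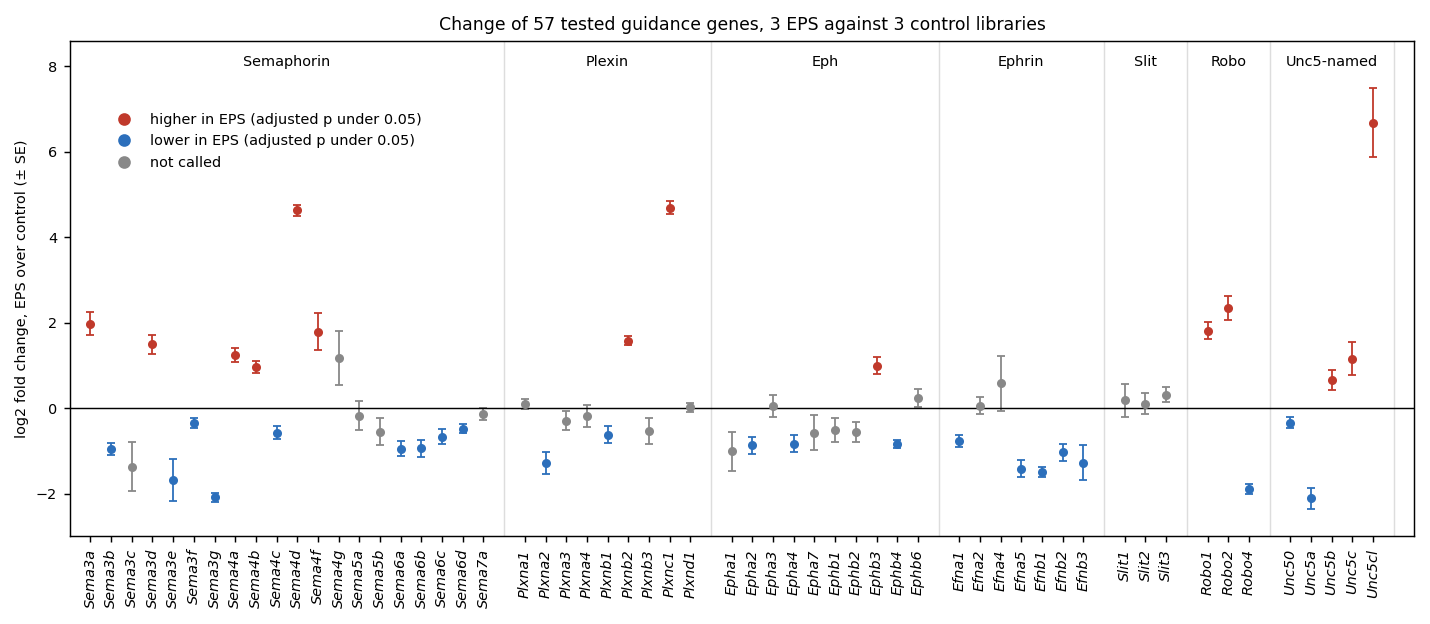
Log2 fold change of EPS over control with its standard error for the 57 tested guidance genes, grouped by family and coloured by the call of edgeR's quasi-likelihood test. Unc5cl, Plxnc1 and Sema4d stand far above the rest, the 7 ephrins hold no gene called higher, and the 3 Slits lie close to 0.

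In each direction, the 3 genes with the largest called change were taken, among those with a mean of at least 1 CPM over all libraries. Their upstream sequences are shown. They are bases upstream of the most upstream start that RefSeq lists (build GRCm38.p6, strand as given), up to 250 bases and cut off before the first base that GENCODE annotates as an exon of the gene. The Sema4d window lies within the span that GENCODE gives the gene, outside its exons, and the other 5 lie before the gene. Unc5cl, a guidance gene in spelling only, reached the mean of 1 CPM only through EPS. Its mean was 0.0238 CPM in controls and 3.07 CPM in EPS. Capitals mark the GC box, GGGCGGG or its reverse complement CCCGCCC.

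Unc5cl, higher, chr17:48454651-48454900, plus strand: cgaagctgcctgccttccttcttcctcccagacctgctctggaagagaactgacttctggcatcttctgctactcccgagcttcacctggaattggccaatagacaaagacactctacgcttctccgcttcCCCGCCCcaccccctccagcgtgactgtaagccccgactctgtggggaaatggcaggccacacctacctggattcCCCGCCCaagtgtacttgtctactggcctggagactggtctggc
Plxnc1, higher, chr10:94944846-94945095, minus strand: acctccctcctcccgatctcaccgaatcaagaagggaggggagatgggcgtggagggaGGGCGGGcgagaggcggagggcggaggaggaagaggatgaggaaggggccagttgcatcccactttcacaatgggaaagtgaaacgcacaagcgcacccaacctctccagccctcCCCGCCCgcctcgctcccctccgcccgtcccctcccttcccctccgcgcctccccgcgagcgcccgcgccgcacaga
Sema4d, higher, chr13:51756803-51756933, minus strand: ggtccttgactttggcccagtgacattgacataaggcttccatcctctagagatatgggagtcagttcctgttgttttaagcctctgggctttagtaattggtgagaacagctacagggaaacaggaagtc
Unc5a, lower, chr13:54949161-54949410, plus strand: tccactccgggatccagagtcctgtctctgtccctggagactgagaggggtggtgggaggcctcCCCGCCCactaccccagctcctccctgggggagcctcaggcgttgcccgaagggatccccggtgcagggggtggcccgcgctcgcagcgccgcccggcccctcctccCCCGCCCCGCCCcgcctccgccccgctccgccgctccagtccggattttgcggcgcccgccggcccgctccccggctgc
Sema3g, lower, chr14:31217623-31217859, plus strand: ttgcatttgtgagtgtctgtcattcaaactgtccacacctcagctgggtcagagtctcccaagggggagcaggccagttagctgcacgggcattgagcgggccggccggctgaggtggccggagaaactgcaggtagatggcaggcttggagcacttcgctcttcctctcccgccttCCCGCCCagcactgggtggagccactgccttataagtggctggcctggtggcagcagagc
Robo4, lower, chr9:37401722-37401896, plus strand: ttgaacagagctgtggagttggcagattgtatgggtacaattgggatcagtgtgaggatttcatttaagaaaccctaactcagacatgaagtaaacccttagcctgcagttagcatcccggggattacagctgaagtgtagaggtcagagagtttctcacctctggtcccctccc

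The GC box was present in the windows of Unc5cl and Plxnc1 (2 matches each), Unc5a (3, of which 2 overlap by 2 bases) and Sema3g (1), and in neither the 131 bases shown for Sema4d nor the 175 bases shown for Robo4. Over all 32851 RefSeq windows it was present in 23.4% at 250 bases, 21.7% at 237, 12.9% at 175 and 8.36% at 131. GC content ranged from 46.6% for Sema4d and 47.4% for Robo4 to 76.8% for Unc5a. On both strands, none of the 6 windows held the PU.1 core GAGGAAGT, the ETS core CCGGAAGT, the RUNX core TGTGGTT, the GATA core AGATAAG or the TATA box TATAAA, which were present in 2.44%, 2.88%, 4.40%, 2.74% and 12.4% of all 250-base windows. A missing match says only that these letters are not in the window.

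Semaphorins moved in both directions: of 20, 6 were higher in EPS, 9 lower and 5 not called, with a median log2 fold change of -0.41. The shares were 30% higher and 45% lower, beside 29.2% and 30.4% of all tested genes. With library totals, 7 semaphorins were higher and 2 lower, beside 5657 and 2182 of all 13980 tested genes. The class 4 semaphorins, membrane proteins that bind B plexins and are carried by many white blood cells, held 4 of the 6 increases (Sema4a, Sema4b, Sema4d and Sema4f). Sema4d, which encodes CD100, a semaphorin abundant on T cells that binds plexins B1 and B2 and the lymphocyte receptor CD72 (chromosome 13, 51685529 to 51793747), was at 8.78, 8.59 and 8.47 CPM in controls 1 to 3 and 185, 215 and 240.3 CPM in EPS 1 to 3. The control values nearly coincide and the lowest EPS value is far above them, a 24.7-fold increase (log2 fold change 4.63 ± 0.13, adjusted p = 1.66e-06). Sema4a, a semaphorin of dendritic cells and B cells that acts in T cell priming (chromosome 3, 88435959 to 88461182), was at 47.5, 39.4 and 53.6 CPM in controls 1 to 3 and 88.9, 114 and 129.7 CPM in EPS 1 to 3. All EPS libraries lie above all controls, with EPS 1 the lowest of the 3 (log2 fold change 1.24 ± 0.17, adjusted p = 4.01e-04).

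Sema4b was at 27.4, 30.1 and 33.4 CPM in controls 1 to 3 and 57.6, 52.1 and 68.1 CPM in EPS 1 to 3, again without overlap (log2 fold change 0.97 ± 0.13, adjusted p = 4.17e-04). Sema4f, a low-abundance member, was at 1.9996, 1.39 and 1.39 CPM in controls 1 to 3 and 2.702, 5.59 and 8.22 CPM in EPS 1 to 3. The EPS values spread widely, with EPS 1 close to the controls and EPS 3 farthest from them (log2 fold change 1.79 ± 0.44, adjusted p = 0.00794). Sema4c, a plexin B2 ligand, moved the other way, at 28.9, 29.998 and 24.7 CPM in controls 1 to 3 and 15.9, 20.8 and 19.3 CPM in EPS 1 to 3, with the highest EPS value below the lowest control (log2 fold change -0.57 ± 0.15, adjusted p = 0.0111; 0.659 with library totals). Sema4g was not called (adjusted p = 0.149), at 1.29, 1.59 and 1.46 CPM in controls 1 to 3 and 2.63, 6.25 and 0.892 CPM in EPS 1 to 3. EPS 3 lies below all controls and EPS 2 far above them, and the gene was called higher without EPS 3 (1.63 on the log2 scale, edgeR adjusted p = 0.0143) and with library totals (1.63, 0.0462). Without EPS 2 its estimate was 0.27.

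Class 3 semaphorins are secreted and act through neuropilins and A plexins, except that Sema3e binds plexin D1 directly. Of 7, 2 rose and 4 fell. Sema3a, which repels axons and restrains vessel growth (chromosome 5, 13125414 to 13602565), was at 1.43, 1.92 and 1.46 CPM in controls 1 to 3 and 6.65, 5.45 and 6.94 CPM in EPS 1 to 3. It was scarce in every control and clearly present in every EPS library (log2 fold change 1.98 ± 0.27, adjusted p = 3.94e-04). Sema3d was at 2.499, 2.78 and 3.24 CPM in controls 1 to 3 and 7.62, 8.13 and 8.27 CPM in EPS 1 to 3, with the EPS values close together and about 8 CPM (log2 fold change 1.49 ± 0.22, adjusted p = 6.03e-04).

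Sema3g, a semaphorin made by blood vessel endothelium (chromosome 14, 31217860 to 31230352), was at 76.2, 83.3 and 72.6 CPM in controls 1 to 3 and 18.2, 18.9 and 17.4 CPM in EPS 1 to 3. Its EPS values lie within 2 CPM of each other and far below the controls, a 4.25-fold decrease (log2 fold change -2.09 ± 0.10, adjusted p = 2.99e-06). Among the 10 blood endothelial markers, the log2 fold change ranged from -1.75 (Tek) to -0.74 (Kdr), with a median of -1.30. Sema3b was at 50.99, 49.95 and 42.8 CPM in controls 1 to 3 and 21.4, 28.7 and 23.9 CPM in EPS 1 to 3, all EPS values being well below the controls (log2 fold change -0.96 ± 0.14, adjusted p = 5.96e-04; 0.0686 with library totals). Sema3e, the plexin D1 ligand, was at 2.86, 1.92 and 1.46 CPM in controls 1 to 3 and 0.9701, 0.658 and 0.347 CPM in EPS 1 to 3. The groups do not overlap but the counts are few, from 7 to 40 per library (log2 fold change -1.67 ± 0.49, adjusted p = 0.0185). This call was lost without control 1 (edgeR adjusted p = 0.087), without control 2 (0.0511) and with controls 1 and 2 averaged (0.0619).

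Sema3f, which acts through neuropilin-2, had the weakest called change among the semaphorins, at 65.6, 58.5 and 52.1 CPM in controls 1 to 3 and 50.2, 45.1 and 43.9 CPM in EPS 1 to 3, where EPS 1 lies just under control 3 (log2 fold change -0.34 ± 0.12, adjusted p = 0.0342), and with library totals it had the opposite sign (0.07). Its call was also lost without any 1 of the libraries other than control 3 (adjusted p = 0.0504 without EPS 1 to 0.139 without control 1). The same held with DESeq2 (adjusted p = 0.0746), with DESeq2's size factors in edgeR (0.0576) and with controls 1 and 2 averaged (edgeR, 0.105). Sema3c was not called by edgeR (adjusted p = 0.0819), at 25.4, 19.4 and 21.9 CPM in controls 1 to 3 and 10.7, 12.9 and 2.18 CPM in EPS 1 to 3. Here every EPS value is below every control, and EPS 3 is far below the other EPS libraries. Without EPS 3 it was called (-0.91, adjusted p = 0.00325), as it was by DESeq2 (0.00979) and limma-voom (0.0404).

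All 4 class 6 semaphorins, membrane proteins that bind A plexins, fell by less than 2-fold, and none of the 4 passed with library totals. The most abundant by counts was Sema6d (chromosome 2, 124089969 to 124667770), at 82.6, 85.2 and 71.4 CPM in controls 1 to 3 and 54.5, 62.4 and 54.9 CPM in EPS 1 to 3. The highest EPS value stays below the lowest control (log2 fold change -0.48 ± 0.11, adjusted p = 0.00609; 0.862 with library totals). Sema6a was at 46.6, 47.4 and 31.7 CPM in controls 1 to 3 and 20.7, 23.7 and 20.9 CPM in EPS 1 to 3, and here control 3 is well below the other controls (log2 fold change -0.94 ± 0.17, adjusted p = 0.00194). Sema6b was at 43.6, 45.2 and 70.1 CPM in controls 1 to 3 and 24.6, 26.5 and 31.8 CPM in EPS 1 to 3, with control 3 well above the other controls (log2 fold change -0.94 ± 0.20, adjusted p = 0.00488). Sema6c was at 10.1, 11.03 and 9.92 CPM in controls 1 to 3 and 6.44, 7.001 and 6.14 CPM in EPS 1 to 3, with both groups tight (log2 fold change -0.66 ± 0.17, adjusted p = 0.00997). With library totals their adjusted p were 0.0746, 0.109 and 0.44. The class 5 genes Sema5a (adjusted p = 0.691) and Sema5b (adjusted p = 0.183), with thrombospondin repeats, and Sema7a, a lipid-anchored semaphorin that binds plexin C1 and beta1 integrin (adjusted p = 0.457), were not called. Sema5a was at 30.1, 33.7 and 26.1 CPM in controls 1 to 3 and 24.6, 40.8 and 14.4 CPM in EPS 1 to 3, so that EPS 2 lies above and EPS 3 below all controls, and its estimate of -0.17 was 0.27 with library totals and 0.13 without EPS 3. Sema7a was at 56.2, 59.6 and 74.3 CPM in controls 1 to 3 and 66.2, 50.7 and 56.9 CPM in EPS 1 to 3, with the groups interleaved, and its estimate of -0.13 turned to 0.27 with library totals.

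**Figure D2:**
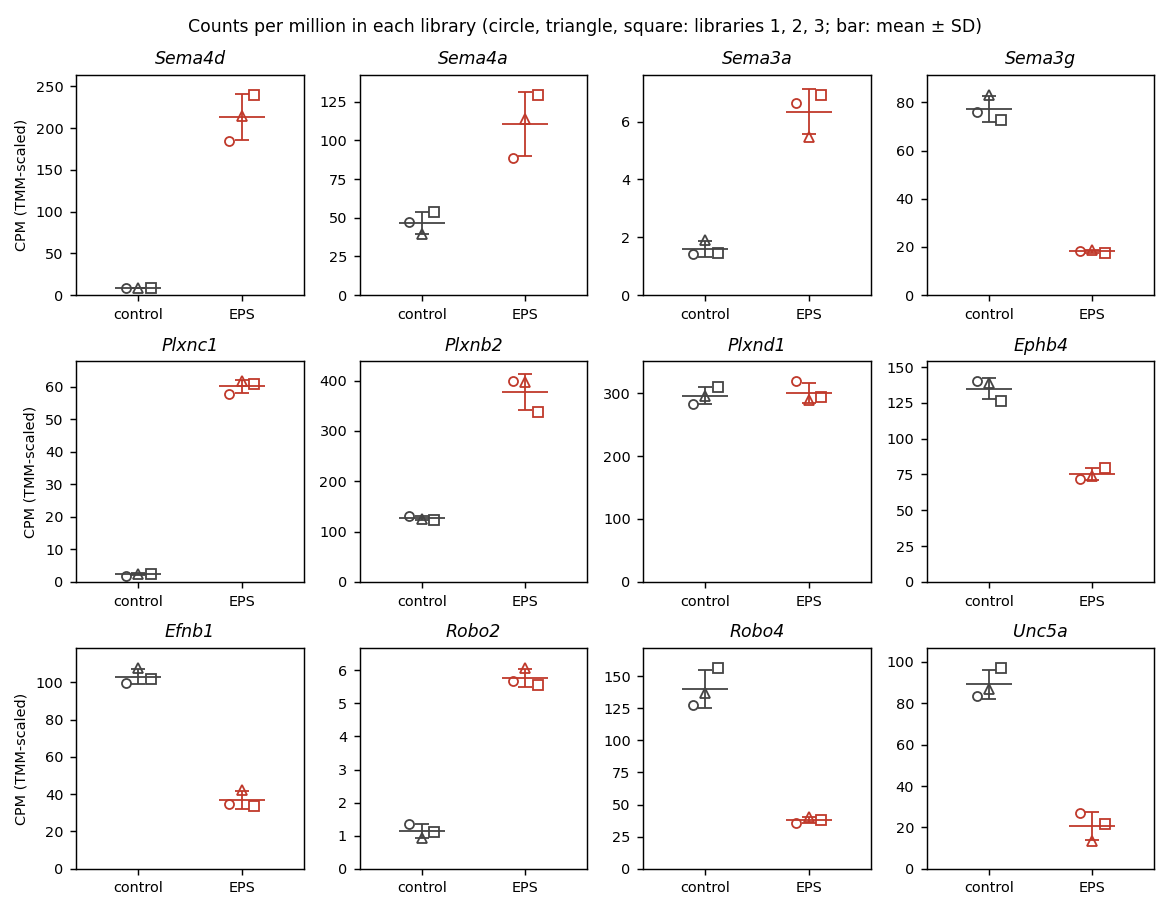
TMM-scaled CPM of 12 guidance genes in each of the 6 libraries, with each group's mean and SD (n = 3), on linear axes that start at 0. Groups do not overlap for 11 of the genes, while the Plxnd1 values of both groups lie between 283 and 319 CPM.

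Plexins, the semaphorin receptors, held 2 genes called higher, 2 lower and 5 not called of 9. The share was 22.2% in each direction, beside 29.2% higher and 30.4% lower of all tested genes. Plxnc1, the receptor of Sema7a (chromosome 10, 94790866 to 94944835), was at 1.93, 2.58 and 2.45 CPM in controls 1 to 3 and 57.9, 61.7 and 60.9 CPM in EPS 1 to 3. Values within each group are close and the groups far apart, a 25.8-fold increase (log2 fold change 4.69 ± 0.15, adjusted p = 1.66e-06). Plxnb2, which binds class 4 semaphorins (chromosome 15, 89155549 to 89180788), was at 131, 125 and 123 CPM in controls 1 to 3 and 398, 397 and 337 CPM in EPS 1 to 3. It is a 2.99-fold increase of a gene that controls already expressed at a high level (log2 fold change 1.58 ± 0.11, adjusted p = 1.19e-05). The other 2 B plexins were not called higher. Plxnb1, the further receptor of Sema4d, was called lower at 30.99, 34.3 and 36.2 CPM in controls 1 to 3 and 28.4, 21.2 and 16.7 CPM in EPS 1 to 3 (log2 fold change -0.62 ± 0.19, adjusted p = 0.0254), and Plxnb3 was not called (-0.54 ± 0.31, adjusted p = 0.167). The call of Plxnb1 was lost without control 2, control 3 or EPS 2 (adjusted p = 0.0733, 0.0826 and 0.064), with controls 1 and 2 averaged (0.0603) and with library totals (0.332).

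Of the A plexins, which pair with neuropilins or bind class 6 semaphorins, Plxna2 (chromosome 1, 194618218 to 194816869) was called lower, at 76.7, 85.8 and 91.6 CPM in controls 1 to 3 and 46.9, 35.5 and 22.04 CPM in EPS 1 to 3. EPS 1 is the nearest to controls and EPS 3 the farthest (log2 fold change -1.29 ± 0.25, adjusted p = 0.00343). Plxna1 was at 94.3, 97.7 and 102 CPM in controls 1 to 3 and 104, 118 and 93.4 CPM in EPS 1 to 3 and was not called (0.10 ± 0.11, adjusted p = 0.463), except with library totals (0.53, adjusted p = 0.0389).

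Plxna3 was at 8.14, 7.202 and 9.26 CPM in controls 1 to 3 and 5.54, 8.22 and 6.24 CPM in EPS 1 to 3. Plxna4 was at 22.1, 24.98 and 22.02 CPM in controls 1 to 3 and 22.7, 25.9 and 12.1 CPM in EPS 1 to 3. In both the groups overlap and neither was called (-0.30 ± 0.22 and -0.19 ± 0.26), and with library totals the estimates turned positive (0.15 and 0.22). Plxna4 was also positive without EPS 3, its lowest library (0.08). Plxnd1, the Sema3e receptor of endothelium and the plexin with the most counts in controls (chromosome 6, 115954811 to 115995005), was at 283, 295 and 310.3 CPM in controls 1 to 3 and 319, 289 and 294 CPM in EPS 1 to 3. The groups overlap fully (log2 fold change 0.02 ± 0.10, adjusted p = 0.871; -0.02 without control 1), beside the decrease of all 10 blood endothelial markers.

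Partners of the semaphorins and plexins, from a list of co-receptors and effectors, were also mixed. Of 8 tested receptors and co-receptors outside the plexins, 2 were higher and 3 lower, beside 29.2% and 30.4% of all tested genes. Cd72, the Sema4d receptor of B cells, rose from 1.39 ± 0.436 to 54.5 ± 5.199 CPM (log2 fold change 5.29 ± 0.22, adjusted p = 2.10e-06), beside the B cell markers. Nrp1, the neuropilin that binds Sema3a and VEGF, fell from 125 ± 5.82 to 83.4 ± 16.5 CPM (adjusted p = 0.0105; 0.432 with library totals), and Nrp2, the partner of Sema3f, was not called (0.11 ± 0.10, adjusted p = 0.384; called higher, at 0.54, with library totals). The integrin gene Itga1 fell by 0.98 on the log2 scale (adjusted p = 0.00123), Met by 0.72 (adjusted p = 0.0435; 0.234 with library totals and over 0.05 without any 1 control or EPS 2), and Hspa5, which encodes a chaperone of the endoplasmic reticulum, rose by 1.22 (adjusted p = 0.00253).

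Of 19 plexin effectors, 7 were higher and 7 lower, beside 29.2% and 30.4% of all tested genes. Sh3bp1 rose from 2.295 ± 0.334 to 13.8 ± 5.24 CPM (log2 fold change 2.59 ± 0.31), and the tyrosine kinase genes Fes and Fyn rose by 1.31 ± 0.19 and 1.10 ± 0.12. Mical3 and Mical2, of the family of oxidases that take actin filaments apart, changed by -1.57 ± 0.15 and -0.94 ± 0.14, the latter with an adjusted p of 0.0505 with library totals. Rras, a small GTPase that plexins switch off, fell from 139.98 ± 8.66 to 50.4 ± 4.91 CPM (log2 fold change -1.47 ± 0.11). These 6 genes had adjusted p from 1.64e-05 (Rras) to 7.27e-04 (Mical2).

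Ephrins, the membrane-bound ligands of Eph receptors, held no gene called higher: 5 of 7 were lower and 2 not called, with a median log2 fold change of -1.02. The share called lower was 71.4%, beside 30.4% of all tested genes (29.2% higher). With library totals, 2 ephrins were lower, beside 2182 of all 13980 tested genes. All 3 B ephrins, which cross the membrane, were lower. Efnb1 (chromosome X, 99136130 to 99148991) was at 99.9, 108 and 102 CPM in controls 1 to 3 and 34.6, 42.2 and 33.7 CPM in EPS 1 to 3. The gap between the groups is wider than the spread within either, a 2.799-fold decrease (log2 fold change -1.48 ± 0.12, adjusted p = 1.97e-05). Efnb2, a ligand of arterial endothelium (chromosome 8, 8617434 to 8661242), was at 59.3, 57.4 and 66.7 CPM in controls 1 to 3 and 26.6, 40.1 and 23.4 CPM in EPS 1 to 3. EPS 2 is the nearest to controls but still below them (log2 fold change -1.02 ± 0.20, adjusted p = 0.00283; 0.0647 with library totals).

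Efnb3 was scarce, at 3.36, 2.58 and 1.79 CPM in controls 1 to 3 and 0.693, 1.41 and 1.04 CPM in EPS 1 to 3, with EPS 2 close to control 3 (log2 fold change -1.27 ± 0.41, adjusted p = 0.0279). Its call was lost without control 1, control 2, EPS 1 or EPS 3 (adjusted p = 0.116, 0.077, 0.074 and 0.0592), with library totals (0.166), with controls 1 and 2 averaged (0.0869) and with the replicate number as a block (0.0555). Of the A ephrins, which are held by a lipid anchor, Efna5 (chromosome 17, 62604184 to 62881317) was at 22.5, 21.7 and 19.5 CPM in controls 1 to 3 and 9.01, 8.97 and 5.94 CPM in EPS 1 to 3. EPS 3 is the lowest and no EPS library comes near the controls (log2 fold change -1.41 ± 0.19, adjusted p = 4.05e-04). Efna1, a ligand of EphA2, was at 31.4, 29.1 and 29.5 CPM in controls 1 to 3 and 15.7, 20.1 and 17.1 CPM in EPS 1 to 3, without overlap (log2 fold change -0.76 ± 0.14, adjusted p = 0.00162; 0.239 with library totals). Efna2 was not called (0.06 ± 0.20, adjusted p = 0.801). Efna4 was at 0.714, 0.396 and 0.728 CPM in controls 1 to 3 and 0.416, 1.74 and 0.545 CPM in EPS 1 to 3, where EPS 2 alone exceeds all controls (0.58 ± 0.65, adjusted p = 0.461), and without EPS 2 its estimate was -0.33.

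Eph receptors, the largest family of receptor tyrosine kinases, held 1 gene called higher, 3 lower and 6 not called of 10 tested, and no called change passed 2-fold. The shares were 10% higher and 30.0% lower, 40% in all, beside 29.2%, 30.4% and 59.6% of all tested genes. Over 2-fold, 17.3% of all tested genes were called higher and 16.8% lower. Ephb4, the receptor of ephrin-B2 on venous endothelium (chromosome 5, 137350109 to 137378669), was at 139.97, 139 and 126 CPM in controls 1 to 3 and 71.9, 74.2 and 79.6 CPM in EPS 1 to 3. Both groups are tight and far apart (log2 fold change -0.84 ± 0.10, adjusted p = 1.43e-04; 0.0918 with library totals). Ephb4 and Efnb2 are thus both lower, beside the endothelial markers.

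Epha2, the receptor of ephrin-A1, was at 22.7, 20.9 and 19.2 CPM in controls 1 to 3 and 8.38, 12.4 and 13.5 CPM in EPS 1 to 3 (log2 fold change -0.87 ± 0.20, adjusted p = 0.00556). Epha4, a receptor of both ephrin classes, was at 8.998, 8.26 and 8.598 CPM in controls 1 to 3 and 4.85, 5.45 and 4.26 CPM in EPS 1 to 3 (log2 fold change -0.83 ± 0.20, adjusted p = 0.00745). The groups overlap in neither, and neither passed with library totals (edgeR adjusted p = 0.22 and 0.23). Ephb3 was the member that rose, at 8.86, 8.79 and 6.88 CPM in controls 1 to 3 and 14.5, 20.1 and 14.2 CPM in EPS 1 to 3. All EPS values exceed all controls (log2 fold change 0.99 ± 0.20, adjusted p = 0.0031; chromosome 16, 21204755 to 21223305). 

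Ephb2 was at 44.6, 45.1 and 31.1 CPM in controls 1 to 3 and 22.7, 36.7 and 22.7 CPM in EPS 1 to 3. EPS 2 lies among the controls, and the gene was not called (adjusted p = 0.0728), but was called lower without EPS 2 (0.00798), without control 3 (0.0418) and with the replicate number as a block (0.0219). Epha1 was at 3.07, 4.49 and 3.04 CPM in controls 1 to 3 and 1.94, 2.58 and 0.743 CPM in EPS 1 to 3, every EPS value being below every control. It was called lower in 1 of the 14 alternatives, without EPS 2 (-1.42, adjusted p = 0.0422, against adjusted p = 0.0931 with all libraries). Epha3 was at 4.36, 7.004 and 5.23 CPM in controls 1 to 3 and 6.44, 5.92 and 4.95 CPM in EPS 1 to 3, with the groups interleaved, and its estimate of 0.06 was -0.09 without control 1. Epha7, Ephb1 and Ephb6, a receptor with an inactive kinase, were not called (-0.57 ± 0.41, -0.51 ± 0.29 and 0.24 ± 0.21), and Epha5 and Epha8 had too few counts to test, at most 2 and 10 in any library.

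Of 13 tested effectors of Eph and ephrin signalling, 7 rose and 3 fell, beside 29.2% and 30.4% of all tested genes. Vav2 and Vav3, which link Eph receptors to Rac, rose by 1.27 ± 0.10 and 1.50 ± 0.23 on the log2 scale and the kinase gene Src by 1.15 ± 0.12. Vav2 went from 40.3 ± 2.15 to 97.3 ± 7.51 CPM (adjusted p = 2.30e-05). Anks1, an adaptor of Eph receptors, fell from 125 ± 13.9 to 62.95 ± 1.57 CPM (adjusted p = 1.19e-04). Sipa1l1 and Pdzrn3, proteins with PDZ domains, fell by 0.48 (adjusted p = 0.00378) and 0.72 (adjusted p = 0.0265), and with library totals neither passed (0.877 and 0.298). The call of Pdzrn3 was also lost without any 1 control (adjusted p = 0.0609, 0.073 and 0.0722 without controls 1, 2 and 3) and with controls 1 and 2 averaged (0.0677).

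None of the 3 Slit genes was called, while all 3 Robo genes in the table were, beside 59.6% of all tested genes. Slit3, the Slit with the most counts (chromosome 11, 35121224 to 35708507), was at 214, 220.03 and 175 CPM in controls 1 to 3 and 279, 287 and 194 CPM in EPS 1 to 3. EPS 1 and EPS 2 are above all controls and EPS 3 among them (0.32 ± 0.17, adjusted p = 0.138), and Slit3 was called higher without EPS 3 (0.48, adjusted p = 0.0122) and with library totals (0.73, 0.0112). Slit2 was at 26.9, 29.5 and 23.1 CPM in controls 1 to 3 and 37.1, 30.5 and 18.3 CPM in EPS 1 to 3, with EPS 1 the highest and EPS 3 the lowest of all libraries (log2 fold change 0.11 ± 0.25, adjusted p = 0.726; -0.05 without EPS 1). Slit1 was scarce (0.19 ± 0.39, adjusted p = 0.703).

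Robo1 and Robo2, the Slit receptors of axons, rose. Robo1 (chromosome 16, 72308306 to 73046095) was at 4.43, 5.88 and 4.43 CPM in controls 1 to 3 and 16.8, 20.3 and 14.8 CPM in EPS 1 to 3, with no EPS library near the controls (log2 fold change 1.81 ± 0.20, adjusted p = 1.32e-04). Robo2 (chromosome 16, 73891839 to 74411825) was at 1.36, 0.925 and 1.12 CPM in controls 1 to 3 and 5.68, 6.06 and 5.55 CPM in EPS 1 to 3, on 14 to 19 counts per control library and 82 to 129 per EPS library (log2 fold change 2.34 ± 0.28, adjusted p = 1.92e-04). Robo4, the Robo of vascular endothelium that stabilises vessels (chromosome 9, 37401897 to 37415115), fell. It was at 127, 137 and 156 CPM in controls 1 to 3 and 35.8, 40.4 and 37.9 CPM in EPS 1 to 3. The highest EPS value is under the lowest control by more than 80 CPM, a 3.69-fold decrease (log2 fold change -1.88 ± 0.11, adjusted p = 6.37e-06), beside a range of -1.75 to -0.74 for the 10 blood endothelial markers.

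Of 15 Slit-Robo partners and effectors, 6 rose and 4 fell, beside 29.2% and 30.4% of all tested genes. Evl and Vasp, which lengthen actin filaments and bind Robo or its adaptors, rose from 28.7 ± 3.405 to 131 ± 24.6 and from 72.2 ± 3.21 to 227 ± 50.7 CPM (log2 fold changes 2.19 ± 0.16 and 1.65 ± 0.16), and Myo9b, which encodes a myosin, rose by 1.04 ± 0.10. Dag1, which encodes the Slit-binding matrix receptor dystroglycan, fell from 444 ± 31.4 to 219 ± 24.9 CPM (adjusted p = 2.19e-04), and Lrig3 by 1.18 on the log2 scale (adjusted p = 4.69e-04). Srgap1, a GTPase-activating protein of Robo signalling, fell by 0.68 (adjusted p = 0.0341), a call lost without control 1 (0.0854), without control 2 (0.12), with controls 1 and 2 averaged (0.0997) and with library totals (0.382).

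The netrin receptors Unc5a, Unc5b and Unc5c were all called, in different directions, beside 59.6% of all tested genes called. Unc5a (chromosome 13, 54949411 to 55006018) was at 83.7, 86.9 and 96.9 CPM in controls 1 to 3 and 27.2, 13.4 and 21.7 CPM in EPS 1 to 3. EPS 2 is the lowest, and the highest EPS library has under 1 in 3 of the lowest control's level (log2 fold change -2.11 ± 0.24, adjusted p = 2.01e-04). Unc5b, the netrin receptor of endothelium (chromosome 10, 60762593 to 60831581), was at 25.4, 26.9 and 19.7 CPM in controls 1 to 3 and 25.8, 46.8 and 40.6 CPM in EPS 1 to 3. EPS 1 lies among the controls, so the groups overlap (log2 fold change 0.66 ± 0.23, adjusted p = 0.0391). Its call was lost when any 1 library other than EPS 1 was left out (edgeR adjusted p from 0.0658 without control 2 to 0.13 without control 3) and with controls 1 and 2 averaged (0.0769). Unc5c was at 1.21, 1.26 and 2.78 CPM in controls 1 to 3 and 4.16, 3.57 and 4.01 CPM in EPS 1 to 3, on few counts, 17 to 42 per control and 60 to 81 per EPS library (log2 fold change 1.15 ± 0.38, adjusted p = 0.0311), and its call was lost without control 1 (0.112), control 2 (0.114) or EPS 3 (0.0589) and with controls 1 and 2 averaged (0.107).

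The 2 genes taken in by spelling also passed. Unc5cl (chromosome 17, 48454901 to 48539714) had 1 count in the controls, in control 1, and 29, 57 and 91 counts in EPS 1 to 3, a ratio of 140.1 after scaling (exact 95% counting interval 24.8 to 5566, for counting error only). Its fitted log2 fold change was 6.68 (adjusted p = 2.06e-04), which rests on that 1 control count. Without control 1 both remaining controls are at 0, and no size is given. The 5 gut epithelial markers, all above 0 in some library, were mixed. Epcam rose from 0.635 ± 0.149 to 25.2 ± 17.4 CPM and Cdh1 from 0.981 ± 0.621 to 49.7 ± 45.7 CPM. Cdh1 varied widely, at 98.0, 44.0 and 7.08 CPM in EPS 1 to 3. Vil1, Muc2 and Lgr5 were not called. The means of Vil1 (1.42 to 0.657 CPM) and Muc2 (1.09 to 0.319 CPM) were lower in EPS, and that of Lgr5 higher (0.462 to 3.01 CPM). Unc50 was at 35.1, 30.1 and 33.4 CPM in controls 1 to 3 and 27.4, 24.3 and 26.5 CPM in EPS 1 to 3, without overlap (log2 fold change -0.34 ± 0.12, adjusted p = 0.0399). That call was kept in 4 of 14 alternatives, and with library totals the estimate was 0.08. Without these 2 genes, 13 guidance genes were higher and 21 lower of 55 tested.

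Of 13 tested netrins, repulsive guidance molecules (RGM) and their receptors and partners, 3 were higher and 5 lower. Over all tested genes, 29.2% were higher and 30.4% lower. The RGM gene Rgma fell from 93.5 ± 6.35 to 32.2 ± 10.4 CPM (log2 fold change -1.54 ± 0.22, adjusted p = 6.86e-04), Ntn4, a netrin of basement membranes, from 62.3 ± 8.26 to 21.9 ± 3.52 CPM (-1.51 ± 0.16, adjusted p = 8.58e-05), and Ntng2, a lipid-anchored netrin relative, by 0.67 (adjusted p = 5.28e-04; 0.277 with library totals). Flrt3, an Unc5 ligand on cell surfaces, rose from 3.02 ± 0.668 to 11.1 ± 1.48 CPM (1.87 ± 0.24, adjusted p = 2.80e-04). The netrin receptor gene Dscam and the netrin antagonist gene Draxin rose from under 1 CPM to 4.25 ± 1.4998 and 4.87 ± 1.296 CPM, with log2 fold changes of 4.35 ± 0.83 (0, 1 and 8 counts in controls 1 to 3, and 6.68 without control 3) and 3.73 ± 0.57 (4.76 without control 2).

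**Figure D3:**
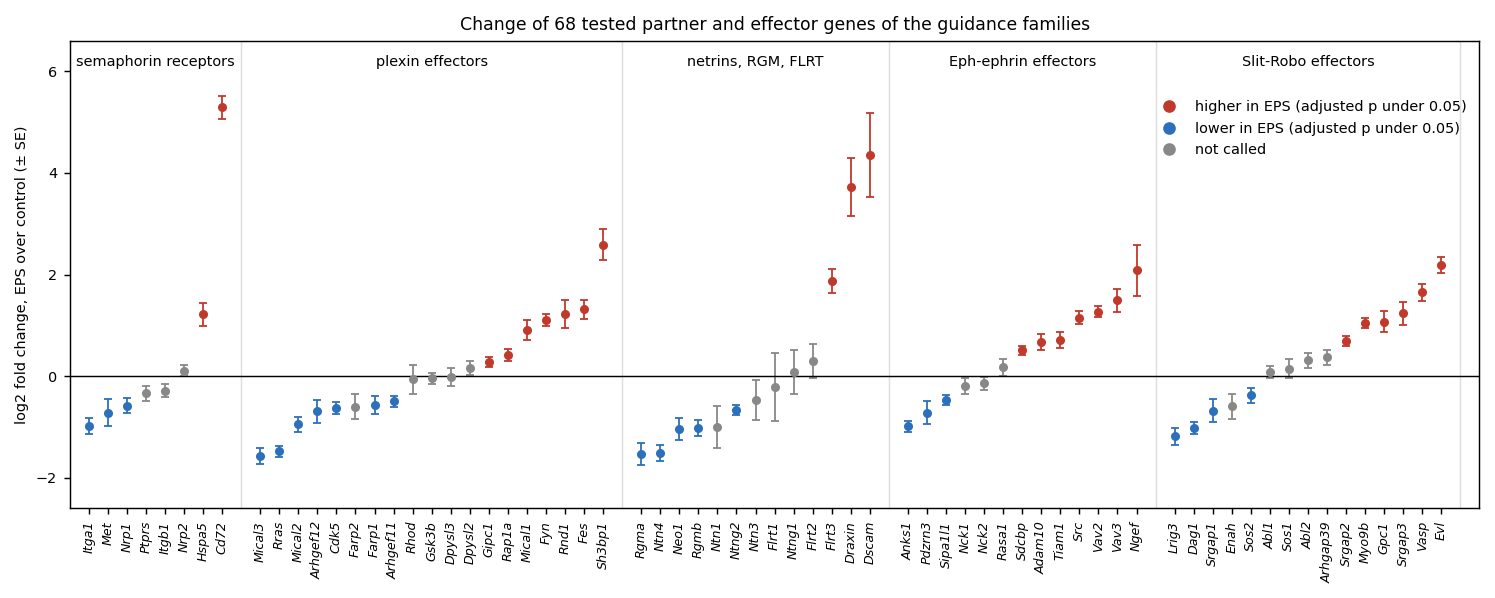
Log2 fold change of EPS over control with its standard error for 68 tested partner and effector genes in 5 lists, coloured by the call of edgeR's quasi-likelihood test. In all, 25 were higher and 22 lower, and every list holds genes of both directions.

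Over the 5 partner lists, 36.8% of 68 tested genes were higher and 32.4% lower, beside 29.2% and 30.4% of all tested genes. The partner lists were written for this purpose with earlier results of these data known. Dcc and Grip1, also on the lists, were not analysed here, and Timd2 and Ntn5 had too few counts to test.

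Levels of different genes were compared as CPM per kilobase of annotated exon. The exon length joins the exons of all annotated transcripts of a gene, so it can exceed the length of any 1 transcript. The order of genes depends on this choice. In controls the highest level was that of Plxnd1 (40.6 ± 1.902, SD, n = 3), followed by Slit3 (33.5 ± 3.98), Efnb1 (29.9 ± 1.15), Ephb4 (29.1 ± 1.61) and Robo4 (26.5 ± 2.77). Plxnd1 stood above Slit3 by more than the sum of their SDs, whereas Slit3, Efnb1, Ephb4 and Robo4 each differ from the next of these 4 by less than that. Unc5a followed at 21.4 ± 1.65 and the semaphorins with the highest level were Sema7a (19.2 ± 2.92) and Sema3g (17.03 ± 1.198), which lie within their spread of each other. In EPS the order began with Plxnb2 (48.9 ± 4.54), Slit3 (41.8 ± 8.49) and Plxnd1 (41.1 ± 2.18), each within that sum of the next.

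Sema4d came next in EPS, at 27.8 ± 3.601 CPM per kilobase, from 1.12 ± 0.0209 in controls, where it ranked 35th of the 59 genes. Plxnc1 went from rank 49 (0.278 ± 0.0411) to rank 14 (7.21 ± 0.237). Robo4 went from rank 5 to rank 15 (7.17 ± 0.439), Unc5a from rank 6 to rank 20 (4.98 ± 1.66) and Sema3g from rank 9 to rank 23 (4.01 ± 0.15997). Among the plexins the highest level was that of Plxnd1 in controls and that of Plxnb2 in EPS. Among the semaphorins in EPS, Sema4d and Sema4a (20.5 ± 3.803) differ by less than the sum of their SDs. Robo1 and Robo2, though higher in EPS, remained far below Robo4 in level per kilobase (1.05 ± 0.168 and 0.339 ± 0.0157). The joined exons span 16.511 kilobases for Robo1, 16.983 for Robo2 and 5.302 for Robo4. Without division by length, their EPS means were 17.3, 5.76 and 38.0 CPM.

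**Figure D4:**
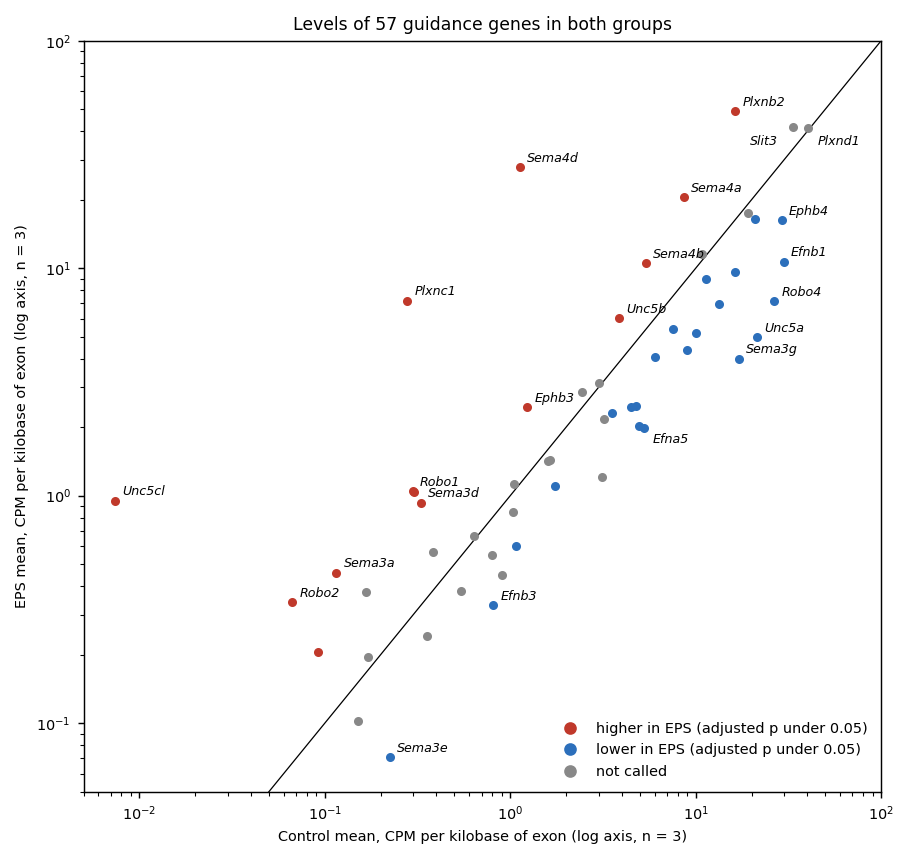
Mean level in EPS against mean level in control, in CPM per kilobase of exon on log axes, for the 57 tested guidance genes (n = 3 libraries per group), with the line of equal levels. Sema4d, Plxnc1 and Unc5cl lie far above the line, and Robo4, Unc5a, Sema3g and Efnb1 are high in controls and below the line.

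Exons of 12 guidance genes overlap another annotated gene, over at most 10.7% of their exon bases (Plxna1), and the library protocol names no step that marks strand. Among the genes with the largest changes, the overlap was 1.38% for Plxnc1, 0.82% for Unc5a and 0 for Sema4d, Sema3g, Robo4, Efnb1 and Unc5cl. Of the 14 genes called higher, 12, among them Unc5cl with 1 control count, were called under all 14 alternatives, the exceptions being Unc5b and Unc5c. Of the 22 called lower, 6 were (Sema3g, Plxna2, Efna5, Efnb1, Robo4 and Unc5a), and 11 lost the call only with library totals. The other 5 (Sema3e, Sema3f, Plxnb1, Efnb3 and Unc50) lost it under other alternatives, and all of these but Sema3e also with library totals.

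**Figure D5:**
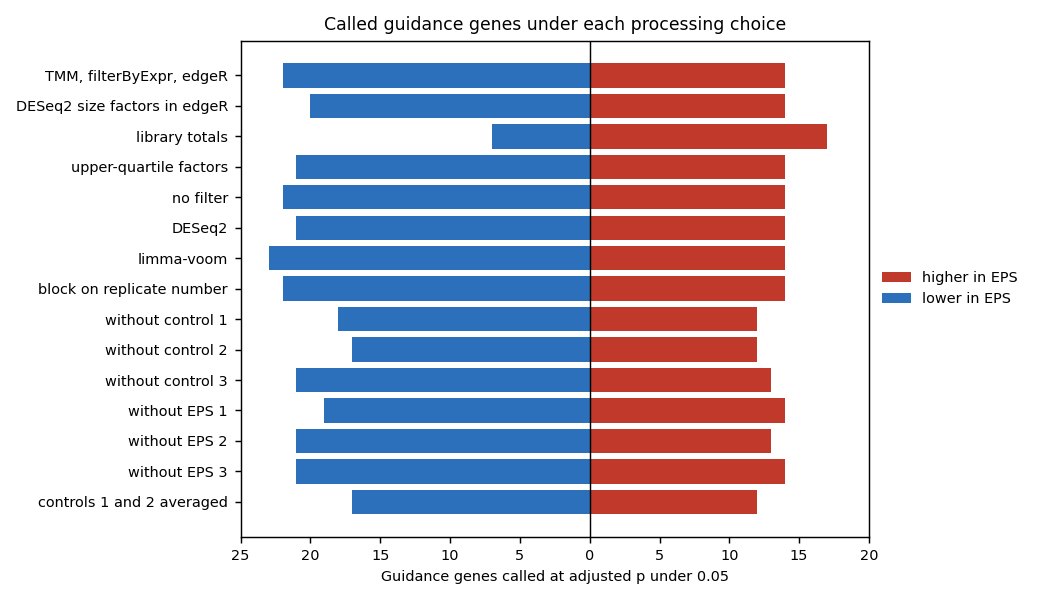
Number of guidance genes called higher (to the right) and lower (to the left) in EPS at an adjusted p under 0.05, under the main processing in the top bar and under each of 14 alternatives. Calls upward stay between 12 and 17, and calls downward between 17 and 23 except with library totals, where there are 7.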

How the data were processed

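Per the labels' protocols, polyadenylated RNA from total RNA was copied with random primers and amplified in 15 PCR cycles. What the authors deposited is 1 table of raw, whole-number counts by gene symbol, on build mm10 per the submitters' processing notes. For aligner, counter and annotation, the sources used here name none. Genes were kept by edgeR's filterByExpr, scaled by TMM and tested for EPS against control, with no covariate, by edgeR 4.0.16's quasi-likelihood F-test with the robust option (R 4.3.3). P-values were adjusted by Benjamini-Hochberg over all 13980 tested genes and a gene was called under 0.05. CPM uses TMM-scaled library sizes, ± is the SD over 3 libraries, or for log2 fold changes the standard error. Depth was 15419232 to 17684229 counts per library. Exon lengths and gene coordinates, found for all 59 guidance genes, are from GENCODE vM21 (GRCm38, the assembly of mm10), 1-based. Upstream sequences are from RefSeq, which matched 52 of the 59.

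The test was first run on simulated data with known changes in a small part of the genes. Far more genes were called here, so that run does not check the TMM scaling of these data. The guidance genes and partner lists were chosen with earlier results of these data known. Values in every library are given for the called genes with the 4 lowest adjusted p in each direction per family, the gene with the highest mean CPM per family, and named guidance genes whose direction or call changed under an alternative. From the partner lists, up to 3 called genes of lowest adjusted p in each direction per list and the neuropilins are named, as group means. The alternatives were other scalings, no filter, DESeq2 1.42.0, limma-voom (limma 3.58.1), the replicate number as a block, each library left out, and controls 1 and 2 averaged, since they were closer to each other (mean chi-square per gene of 4.41 over genes with at least 20 counts) than to control 3 (15.9 and 16.4). The labels only number the libraries, so the numbers were not treated as pairs. Deviations from the group means correlated at 0.23, -0.11 and 0.26 between same-numbered libraries. With 3 libraries per group these values cannot show whether the numbers are pairs.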

Additional observations from a re-analysis of the deposited data

How the results depend on the processing

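With library totals, 17 guidance genes were higher and 7 lower, beside 5657 and 2182 of all 13980 tested genes. Among the 7 were 2 semaphorins, 1 plexin, 0 Eph receptors, 2 ephrins and 1 Unc5 gene. Of the Slits, 1 (Slit3) was higher, and 10 partner genes were lower in place of 22. The log2 fold changes of Sema3f (0.07396), Sema5a (0.267), Sema7a (0.273), Plxna3 (0.149), Plxna4 (0.224) and Unc50 (0.0805) then turned positive. The estimates moved up together because that scaling omits the TMM factors, 0.86 to 0.88 in controls and 0.94 to 1.28 in EPS. Uncalled log2 fold changes that changed sign when 1 library was left out ranged from -0.622 to 0.129 for Sema5a and -0.406 to 0.0787 for Plxna4 (positive without EPS 3), -0.0163 to 0.0525 for Plxnd1 and -0.0888 to 0.262 for Epha3 (negative without control 1), -0.327 to 0.956 for Efna4 (negative without EPS 2) and -0.0548 to 0.347 for Slit2 (negative without EPS 1). The cause was not tested.

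With 1 library left out, guidance genes higher ranged from 12 to 14 and lower from 17 to 21, semaphorins from 6 to 7 and from 7 to 9, plexins lower from 1 to 2, Eph receptors lower from 3 to 5, ephrins lower from 4 to 5, Slits higher from 0 to 1, Unc5 genes higher from 1 to 3 and lower from 1 to 2, and partner genes from 24 to 27 and from 16 to 25. With controls 1 and 2 averaged, 12 guidance genes were higher and 17 lower, with 1 plexin lower, 1 Unc5 gene higher and 1 lower. Sema3f and Unc50 lost their calls with DESeq2 and with DESeq2's size factors in edgeR, and Unc50 also with upper-quartile factors. Each of these settings left 1 Unc5 gene lower. With the replicate number as a block, 14 guidance genes were higher and 22 lower, with Efnb3 lost and Ephb2 gained. Controls 1 to 3 correlated best with EPS 1, EPS 1 and EPS 3, so not every sample matched its own number. With 3 libraries per group this does not settle whether the numbers are pairs. Calls of Sema3e, Sema3f, Plxnb1, Efnb3, Unc5b, Unc5c and Unc50 were lost when single libraries were left out. Depth was not tested as a cause.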
